A study of Oryza sativa Japonica Group with 4 samples.

Results

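Homeobox and MADS genes encode transcription factors that set organ identity and meristem activity in plants. Homeobox proteins bind DNA through a homeodomain, and in the HD-Zip classes the homeodomain is followed by a leucine zipper through which the proteins pair. Class I and II HD-Zip genes are known for responses to water, light and hormones, class III for vascular and organ polarity, and class IV, which holds the *ROC* genes, for the epidermis. The *WOX* genes are known for stem cell niches, including that of the root tip, and the KNOX genes, many of which are named *OSH* in rice, mainly for the shoot apical meristem. MADS proteins bind DNA through a MADS domain. Those of the B, C, D and SEPALLATA groups specify floral organs, those of the APETALA1/FRUITFULL, SOC1 and SVP groups mainly set the time of flowering, and those of the AGL17 group include *ANR1* of Arabidopsis, which promotes lateral root growth towards nitrate.

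The genes described here are those whose symbol or synonym is *HOX*, *WOX*, *OSH*, *KNOX*, *ROC* or *MADS* followed by a number. The rule matched 82 genes, 51 homeobox and 31 MADS. A probe set of their own was present for 77 of them, 46 homeobox and 31 MADS, among 17905 genes with such a probe set in all. *HOX3*, *ROC9*, *OSH10* and *WOX5* had no probe set in the annotation used here, and *OSH15* had only a probe set shared with another gene, so these 5 genes are not described further. Where a gene had several probe sets, the one with the highest mean over the 4 arrays was used. This applied to 14 of the 77 genes.

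Roots of 17-day-old japonica rice seedlings (cultivar TNG67) were compared after 30 min with ammonium nitrate (1.43 mM NH4NO3, +N) and after 30 min without N (−N). All seedlings had been raised in hydroponic solution lacking ammonium nitrate, so both groups were N-starved before the 30 min began. Each group had 2 biological replicates, each on its own Affymetrix Rice Genome Array, on which probe sets of short oligonucleotides report the abundance of transcripts as intensities. The labels do not say whether the replicates were separate cultures, so p-values measure only how far these samples spread, which may be technical. The arrays hold RNA of whole roots, and fewer cells of a type cannot be told apart from less RNA per cell.

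Median intensities of all rice probe sets were 17.1 and 25.4 on the +N arrays and 17.8 and 25.2 on the −N arrays of replicates 1 and 2. The arrays of the same replicate number thus shared a scale, and the scales of the replicates differed. Identical values on the +N and −N arrays were found for 2132 probe sets in replicate 1 and 2845 in replicate 2, against at most 1 for any other pair of arrays. For members with identical values in a pair, such as *HOX24* in both, the difference in that replicate is 0 as deposited. All 6 measured genes of a list of root markers lay above the array median on all 4 arrays, against 79.4% of all genes. Separate genes among the 6 share the symbol *RSS1*, so it is uncertain that each is the marker meant by the list. The 6 include the silicon transporter gene *LSI1* (8058 and 9089 in +N roots, 7224 and 9869 in −N roots). In a list of leaf and shoot markers 3 of 4 measured genes lay above the median on all 4 arrays as well. The summed intensity of the 4 was 10934 and 12889 in +N roots and 8836 and 13318 in −N roots. Most of it came from *CAB2R* (9343 and 11076 in +N roots, 7870 and 11216 in −N roots). *RBCS* had 878 and 873 in +N roots and 304 and 1303 in −N roots. The part of these markers in the results below was not tested.

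A gene was counted as detected where its probe set lay above the array's own median on all 4 arrays. Probe sets differ in brightness for the same amount of RNA, so this line sorts genes coarsely and no order among genes is read from it. By this line 42 of the 77 genes (54.5%) were detected in roots, against 79.4% of all genes. Another 5 genes (*MADS2*, *HOX21*, *HOX11*, *ROC6* and *OSH3*) lay above the median on 1 to 3 arrays, and 30 lay above it on none, which held for 14.9% of all genes. Detection covered 30 of the 46 homeobox genes (65.2%) and 12 of the 31 MADS genes (38.7%). With the line at the 75th percentile of each array 23 of the 77 genes were above it, against 52.5% of all genes, and at an intensity of 100 on every array 24 were, against 54.6%. Of the 14 genes with several probe sets, 5 had probe sets on both sides of the detection line. These were *HOX5*, *HOX16*, *HOX19*, *MADS14* and *WOX6*, each counted as detected by its brightest probe set.

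**Figure D1:**
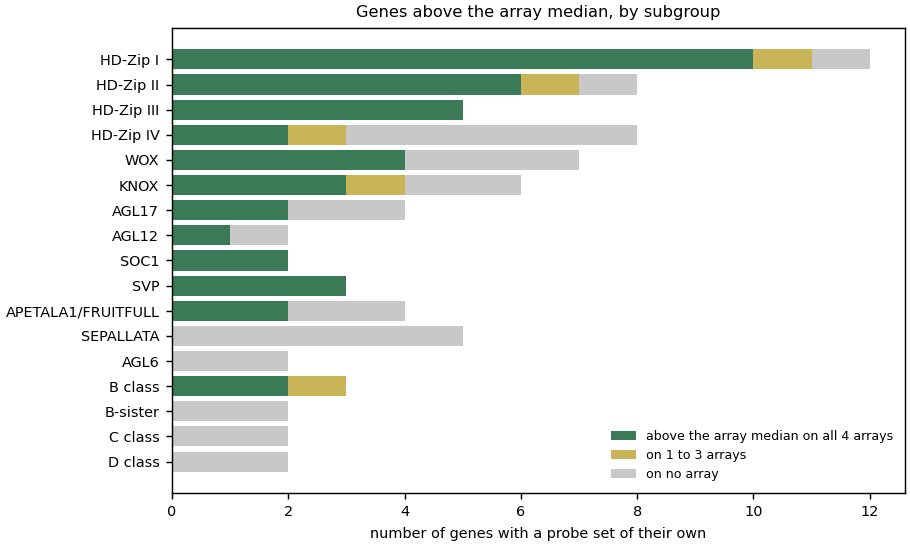
Number of homeobox and MADS genes above the array median on all 4 arrays, on 1 to 3 arrays and on no array, by subgroup (x axis, number of genes with a probe set of their own). All 5 HD-Zip III, both SOC1 and all 3 SVP genes were above it on all 4 arrays, whereas none of the 13 genes of the SEPALLATA, AGL6, B-sister, C and D groups was above it on any.

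Among the homeobox genes, HD-Zip genes of classes I to III were mostly detected. Detected were 10 of 12 genes of class I, 6 of 8 of class II and all 5 of class III. By contrast, class IV had 2 detected genes of 8, *ROC4* and *ROC5*. In the *WOX* group 4 of 7 genes were detected, namely *WOX6*, *WOX8*, *WOX9* and *WOX11*. *WOX9* is the rice *QHB* gene, named for its expression in the quiescent center of the root tip, and *WOX11* is known to promote the emergence of crown roots. The undetected *WOX* genes were *WOX4*, *WOX7* and *WOX10*. Of the 6 measured KNOX genes that the rule matched, *OSH6*, *OSH45* and *OSH71* were detected. *OSH1*, which maintains the shoot apical meristem, had 5.84 and 8.81 in +N roots and 5.58 and 8.81 in −N roots, below the array median throughout.

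Detection among the MADS genes ran from all to none of a group. Of the 11 genes of the SVP, SOC1, AGL17 and AGL12 groups 8 were detected, and of the 13 genes of the SEPALLATA, AGL6, B-sister, C and D groups 0 were. The intensities of these 13 genes spanned 4.59 to 15.3 on the +N arrays and 4.14 to 14.5 on the −N arrays. They include *MADS1* of the SEPALLATA group, which specifies the lemma and palea of the rice floret, and the stamen and carpel genes *MADS3* and *MADS58* of the C group. In the B group 2 of 3 genes were detected. *MADS16*, the rice *SPW1* gene of lodicule and stamen identity, had 1922 and 2705 in +N roots and 2191 and 2514 in −N roots, far above the median of each array. Values of the groups overlapped, with a log2 fold change of −0.042 ± 0.25 (SE, unadjusted p = 0.876). *MADS4*, a *PISTILLATA*-like gene, was also detected, and *MADS2*, of the same type, was above the median on 3 of 4 arrays. Of 6 measured genes in a list of flower markers, *MADS16* was the 1 detected. *MADS1* is also in that list, so the list is not independent of the genes described here.

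**Figure D2:**
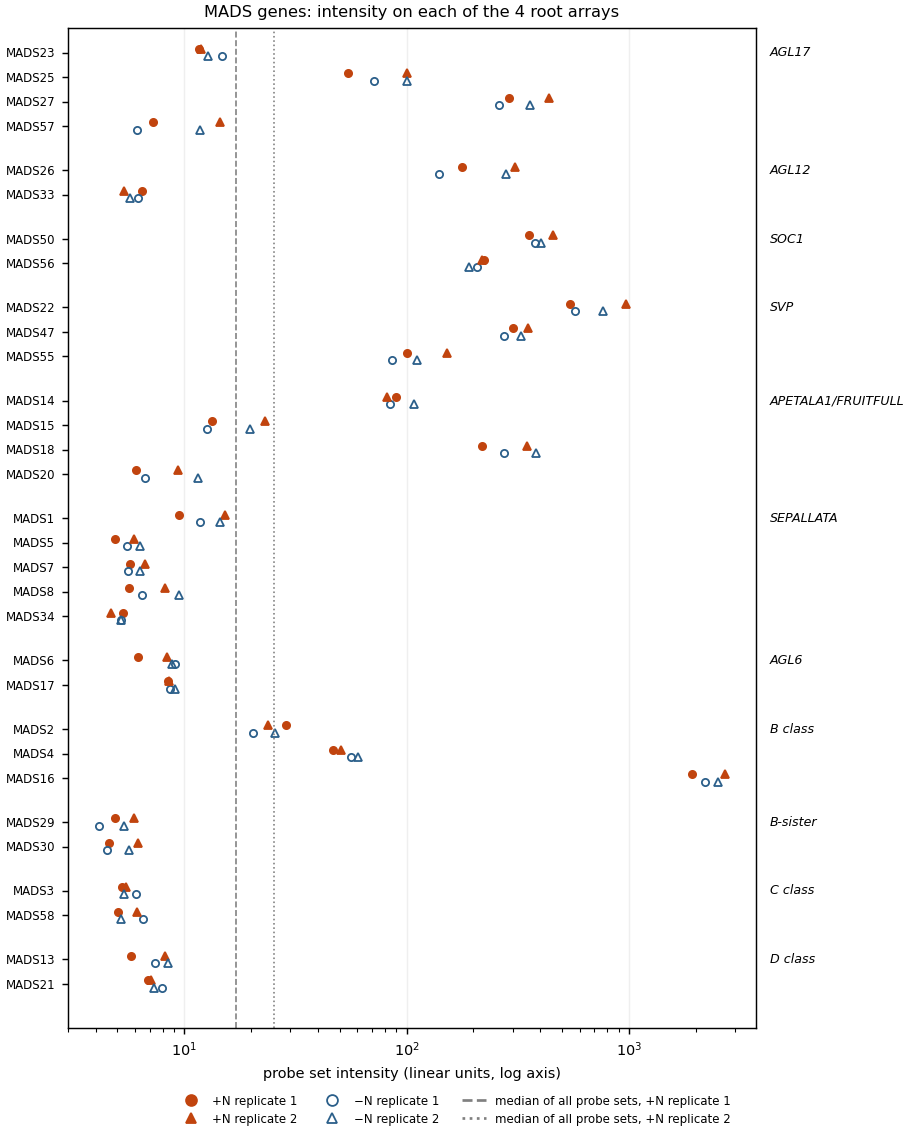
Intensity of each of the 31 MADS genes on each array (x axis, linear intensity units on a log axis; filled, +N; open, −N; circles, replicate 1; triangles, replicate 2), by group. The broken lines are the medians of all rice probe sets on the +N arrays (17.1 and 25.4); *MADS16* lies at 1922 to 2705, and the SEPALLATA, AGL6, B-sister, C and D genes lie below both lines.

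For the change with ammonium nitrate, a gene was called where it differed at least 2-fold with an unadjusted limma p under 0.05. By this rule 1 of the 77 genes was higher in +N roots, *WOX6*, which is 1.30% of them against 1.01% of all genes. No gene was called lower, against 0.0223% of all genes. The share of calls was thus near that of all genes. After Benjamini-Hochberg adjustment over all rice probe sets limma called 0 of the 77 genes, each with an adjusted p = 1, and 0 of all genes. The p-values given below are therefore unadjusted limma values. Without adjustment 2 of the 77 genes, *WOX6* and *WOX10*, had a p under 0.05, which is 2.60% against 2.2% of all genes. A change of at least 1.5-fold was seen in 4 genes (*WOX6*, *HOX22*, *HOX19* and, downward, *HOX28*), which is 5.19% against 5.61% of all genes. The median log2 fold change was 0.027 over the 77 genes and 0.018 over all genes. Counting genes that moved one way in each replicate, 22 of the 77 were higher in +N roots (28.6%, against 28.7% of all genes) and 21 lower (27.3%, against 21% of all genes). Of the 42 detected genes 17 were higher (40.5%, against 31.5% of detected genes) and 9 lower (21.4%, against 19.8%).

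*WOX6*, which in rice acts with *WOX11* in shoot gravitropism, was read by the brighter of its 2 probe sets at 187 and 338 in +N roots, against 118 and 107 in −N roots. Both +N arrays exceeded both −N arrays, and the +N arrays differed more from each other than the −N arrays did. The log2 fold change was 1.16 ± 0.36 (SE, n = 2 each, unadjusted p = 0.0414), or 2.24-fold. Taken within replicate 1 it was 0.66, and within replicate 2 it was 1.67. The dimmer one had 7.74 and 7.97 in +N roots and 7.32 and 6.32 in −N roots, below every array's median, with a log2 fold change of 0.21 (unadjusted p = 0.282). The call of *WOX6* rested on single arrays and was kept without +N replicate 1 (1.59). It was lost without +N replicate 2 (0.74), without −N replicate 1 (1.24) and without −N replicate 2 (1.09). Leaving out an array compares arrays of unlike scale, and the median over all genes moved as well. That median was 0.23 without +N replicate 1, −0.18 without +N replicate 2, −0.23 without −N replicate 1 and 0.28 without −N replicate 2. The call was also lost with the mean over both probe sets (0.69, unadjusted p = 0.0835), with the replicate number as a block (unadjusted p = 0.0546) and in a linear model with no variance moderation (unadjusted p = 0.115).

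The other *WOX* genes were not called. *WOX11* had 45.0 and 77.3 in +N roots and 56.3 and 56.6 in −N roots, so the −N values lay between the +N values. *WOX9* had 27.9 and 47.1 in +N roots and 27.9 and 41.1 in −N roots. *WOX8* had 135 and 164 in +N roots and 129 and 157 in −N roots. Groups overlapped for all 3 genes, with log2 fold changes of 0.064 ± 0.33 for *WOX11*, 0.098 ± 0.39 for *WOX9* and 0.064 ± 0.21 for *WOX8* (SE). *WOX10* had 8.89 and 8.96 in +N roots and 6.24 and 6.60 in −N roots. Its groups did not overlap, with a log2 fold change of 0.48 (unadjusted p = 0.0374), but all 4 values lay below the array medians.

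**Figure D3:**
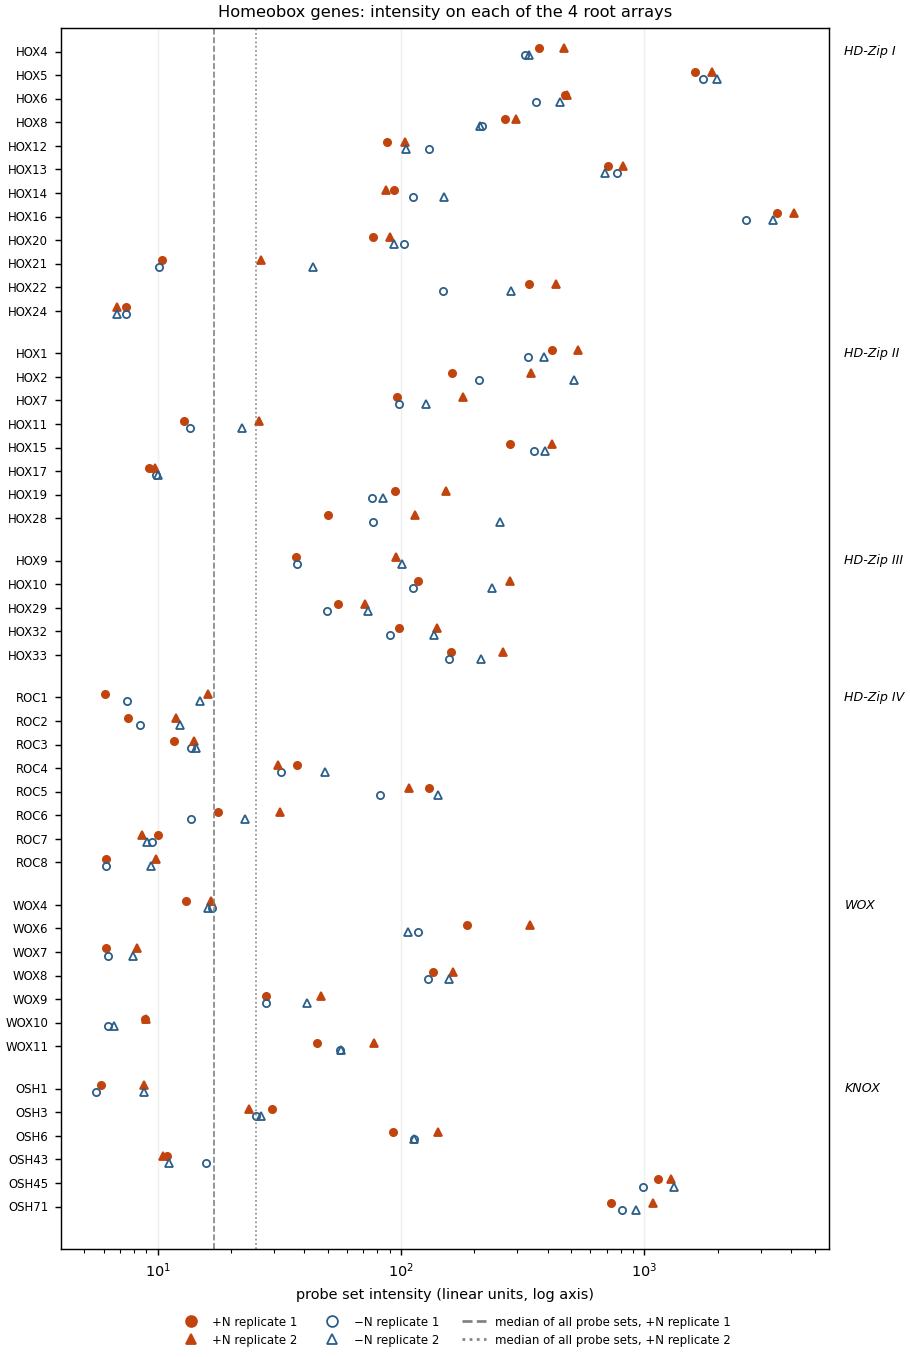
Intensity of each of the 46 homeobox genes on each array (x axis, linear intensity units on a log axis; filled, +N; open, −N; circles, replicate 1; triangles, replicate 2), by subgroup. The broken lines are the medians of all rice probe sets on the +N arrays (17.1 and 25.4); *WOX6* lies at 187 and 338 on the +N arrays, above its −N values of 118 and 107.

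HD-Zip class I held 8 of the 13 detected genes whose groups did not overlap. Detected class I genes had a median log2 difference between replicates of 0.17, against 0.48 over all detected genes. This is replicate 2 minus replicate 1, with its sign, averaged over +N and −N. Opposite differences cancel in it, as in *HOX12* (0.24 in +N and −0.31 in −N roots). It therefore does not measure the spread within a group. The part of replicate differences in the lack of overlap was not tested. Over all 77 genes both +N arrays exceeded both −N arrays for 10 (13.0%, against 9.23% of all genes) and both lay below for 10 (13.0%, against 5.12%). Of the 10 lower genes 6 were not detected. Among the 42 detected genes the counts were 9 higher (21.4%, against 10.1% of detected genes) and 4 lower (9.52%, against 4.31%). Class I contributed 5 of the higher genes (*HOX4*, *HOX6*, *HOX8*, *HOX16* and *HOX22*) and 3 of the lower ones (*HOX12*, *HOX14* and *HOX20*), out of 12 measured. The other higher detected genes were *HOX1* and *HOX19* of class II, *WOX6* and *MADS56*, and the other lower detected gene was *MADS4*. Since class I genes lay in both directions, their median log2 fold change was 0.031, whereas the median of its absolute value was 0.31, against 0.14 over all genes. Class II had a median absolute value of 0.32.

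*HOX22*, known in rice for responses to abscisic acid and drought, had the largest positive log2 fold change in class I. It had 337 and 432 in +N roots, against 149 and 284 in −N roots, and the groups did not overlap. The log2 fold change was 0.89 ± 0.41 (SE, unadjusted p = 0.107), which did not pass the rule. With the replicate number as a block the unadjusted limma p was 0.0325, still under 2-fold. The value depended on single arrays. It was 0.43 without −N replicate 1, 0.71 without +N replicate 2, 1.07 without +N replicate 1 and 1.36 without −N replicate 2. Leaving out an array compares arrays of unlike scale, and the median over all genes moved as well. That median was −0.23, −0.18, 0.23 and 0.28 in the same order.

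*HOX14*, known for its part in panicle development, had the largest negative value in class I. It had 93.9 and 86.9 in +N roots and 112 and 150.5 in −N roots, again without overlap. The log2 fold change was −0.52 ± 0.22 (SE, unadjusted p = 0.0884), and it ranged from −0.74 to −0.31 when single arrays were left out. The −0.31 came without −N replicate 2, where the median over all genes was 0.28. The −0.74 came without −N replicate 1, where that median was −0.23.

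*HOX8* had 268 and 296 in +N roots and 215 and 211 in −N roots, with values close together within each group. Its log2 fold change was 0.41 ± 0.15 (SE, unadjusted p = 0.0646). *HOX16* had 3520 and 4117 in +N roots and 2604 and 3366 in −N roots. The groups did not overlap, with a log2 fold change of 0.36 (unadjusted p = 0.184). A second probe set of *HOX16* gave 0.47 (unadjusted p = 0.0440), and the dimmest one lay below the array medians. The remaining class I genes without overlap, *HOX4*, *HOX6*, *HOX12* and *HOX20*, had log2 fold changes of 0.33, 0.25, −0.29 and −0.24. In *HOX12* the highest +N value was 103 and the lowest −N value 105, and in *HOX20* they were 90.3 and 93.2. The direction of *HOX20* depended on the probe set, since its other detected probe set gave 0.12.

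In HD-Zip class II, *HOX28* had the largest negative log2 fold change of all 77 genes and *HOX19* the largest positive one of the class. *HOX28*, known for its part in tiller angle and shoot gravitropism, had 50.1 and 114 in +N roots and 77.0 and 256 in −N roots. The groups overlapped, because within each group the array of replicate 2 was far above that of replicate 1. The log2 fold change was −0.89 ± 0.82 (SE, unadjusted p = 0.351), and it was −0.62 and −1.16 in the 2 replicates taken on their own. With the replicate number as a block the unadjusted limma p was 0.0299, at the same change of under 2-fold. Without −N replicate 2 the log2 fold change was −0.023, and without −N replicate 1 it was −1.75. The medians over all genes were then 0.28 and −0.23. *HOX2*, the next gene to *HOX28* in the gene table, had 162 and 341 in +N roots and 209 and 513 in −N roots. Its values followed the same order over the arrays as those of *HOX28*, with a log2 fold change of −0.48 ± 0.66 (SE, unadjusted p = 0.518). With the replicate number as a block its unadjusted limma p was 0.0352. *HOX19* had 94.2 and 153 in +N roots and 75.7 and 84.0 in −N roots. Its groups did not overlap, with a log2 fold change of 0.59 ± 0.31 (SE, unadjusted p = 0.142). It was 0.24 without +N replicate 2 and 0.95 without +N replicate 1, where the medians over all genes were −0.18 and 0.23. A second detected probe set of *HOX19* gave 0.26. The dimmest one, below the array medians, gave −0.27, and the mean over the probe sets of *HOX19* gave 0.19. *HOX1*, which acts with *HOX28* on tiller angle, had 418 and 535 in +N roots and 331.5 and 388 in −N roots, with a log2 fold change of 0.40 (unadjusted p = 0.148).

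**Figure D4:**
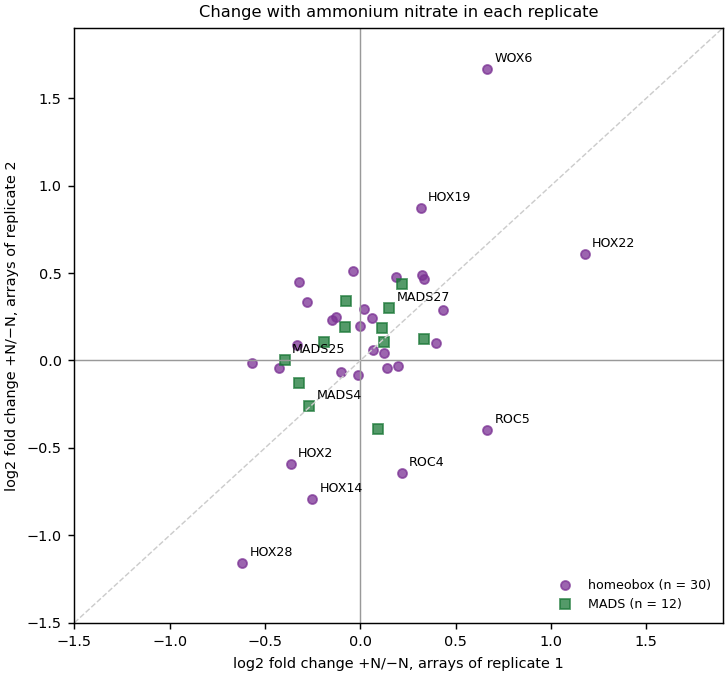
Log2 fold change of +N over −N within replicate 1 (x axis) and within replicate 2 (y axis) for the 30 detected homeobox (circles) and 12 detected MADS genes (squares). *WOX6* lies at 0.66 and 1.67, *HOX22* at 1.18 and 0.61 and *HOX28* at −0.62 and −1.16, while *ROC5* differs in sign between replicates (0.67 and −0.40).

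In HD-Zip class III the difference between replicates exceeded that between treatments in all 5 genes, as it did in 82.4% of all detected genes. *HOX9* had 37.0 and 95.0 in +N roots and 37.3 and 101 in −N roots. *HOX33* had 160 and 262 in +N roots and 158 and 213 in −N roots. In both genes replicate 2 was the higher one in each group, and the log2 fold changes were −0.049 ± 0.77 for *HOX9* and 0.16 ± 0.35 for *HOX33* (SE). Those of *HOX10*, *HOX29* and *HOX32* were 0.15, 0.048 and 0.084. Over the 42 detected genes the replicate difference was larger than the difference between treatments in 26 (61.9%, against those 82.4%). The replicate difference is again the signed average over +N and −N, so opposite signs cancel, as in *ROC5* (−0.27 and 0.79). The median replicate difference was 0.35 over the 42 genes and 0.48 over all detected genes, and it includes the unlike scale of the replicates. This difference reached 1 on the log2 scale in *HOX28* (1.46), *HOX9* (1.40), *HOX2* (1.18) and *HOX10* (1.18), which is 9.52% of the 42 genes against 6.62% of all detected genes.

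The 2 detected *ROC* genes of class IV differed in direction between replicates. *ROC5*, known for its control of leaf rolling through bulliform cells, had 130 and 108 in +N roots and 81.9 and 142 in −N roots. The −N values lay on either side of the +N values, and the log2 fold change was 0.13 ± 0.35 (SE). *ROC4* had 37.3 and 31.2 in +N roots and 32.1 and 48.7 in −N roots, with a log2 fold change of −0.21 ± 0.29 (SE). Here too the groups overlapped. In the KNOX group, *OSH45* had 1136 and 1288 in +N roots and 989 and 1318 in −N roots, and the log2 fold changes of *OSH45*, *OSH71* and *OSH6* were 0.084, 0.041 and 0.027.

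None of the 31 MADS genes was called, and none differed by 1.5-fold or had an unadjusted limma p under 0.05. *MADS27* and *MADS25* of the AGL17 group, known in rice for root growth in response to nitrate, were both detected, whereas *MADS23* and *MADS57* of this group were not. *MADS27* had 289.5 and 440 in +N roots and 260.5 and 358 in −N roots. The groups overlapped, although the +N array was the higher one in each replicate. Its log2 fold change was 0.23 ± 0.32 (SE, unadjusted p = 0.531), and its second probe set gave 0.30 (unadjusted p = 0.265). *MADS25* had 54.3 and 100.05 in +N roots and 71.5 and 100.05 in −N roots, with identical values in replicate 2. Its log2 fold change was −0.20 ± 0.41 (SE, unadjusted p = 0.659).

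Genes of the SOC1 and SVP groups were all detected and none was called. *MADS56*, a SOC1-like gene that delays flowering in long days, had 224 and 218 in +N roots and 207 and 191 in −N roots. The groups did not overlap, with a log2 fold change of 0.15 ± 0.15 (SE, unadjusted p = 0.375). *MADS50*, its SOC1-like counterpart that promotes flowering, had a log2 fold change of 0.055. Of the SVP-like genes, which act in brassinosteroid responses and meristem identity in rice, *MADS55* had 100.1 and 151 in +N roots and 85.9 and 112 in −N roots. The groups overlapped, and the log2 fold change of 0.33 ± 0.31 (SE, unadjusted p = 0.354) was the largest among the 31 MADS genes. It was 0.030 without +N replicate 2, 0.14 without −N replicate 1 and 0.63 without +N replicate 1. The medians over all genes were then −0.18, −0.23 and 0.23. The log2 fold changes of *MADS22* and *MADS47* were 0.13 and 0.11. *MADS18* of the APETALA1/FRUITFULL group had 219 and 348 in +N roots and 274 and 381 in −N roots, with overlap and a log2 fold change of −0.23 ± 0.34 (SE), and *MADS14* of the same group had one of −0.15.

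*MADS26* of the AGL12 group, known in rice for stress responses, had 177 and 306 in +N roots and 140 and 282 in −N roots. Replicate 2 was the higher one in each group, the groups overlapped, and the log2 fold change was 0.23 ± 0.51 (SE, unadjusted p = 0.684). *MADS4* had 46.5 and 50.5 in +N roots and 56.0 and 60.6 in −N roots. It was the 1 detected MADS gene with both +N arrays below both −N arrays, with log2 fold changes of −0.27 and −0.26 in the replicates and a limma p of 0.172.

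**Figure D5:**
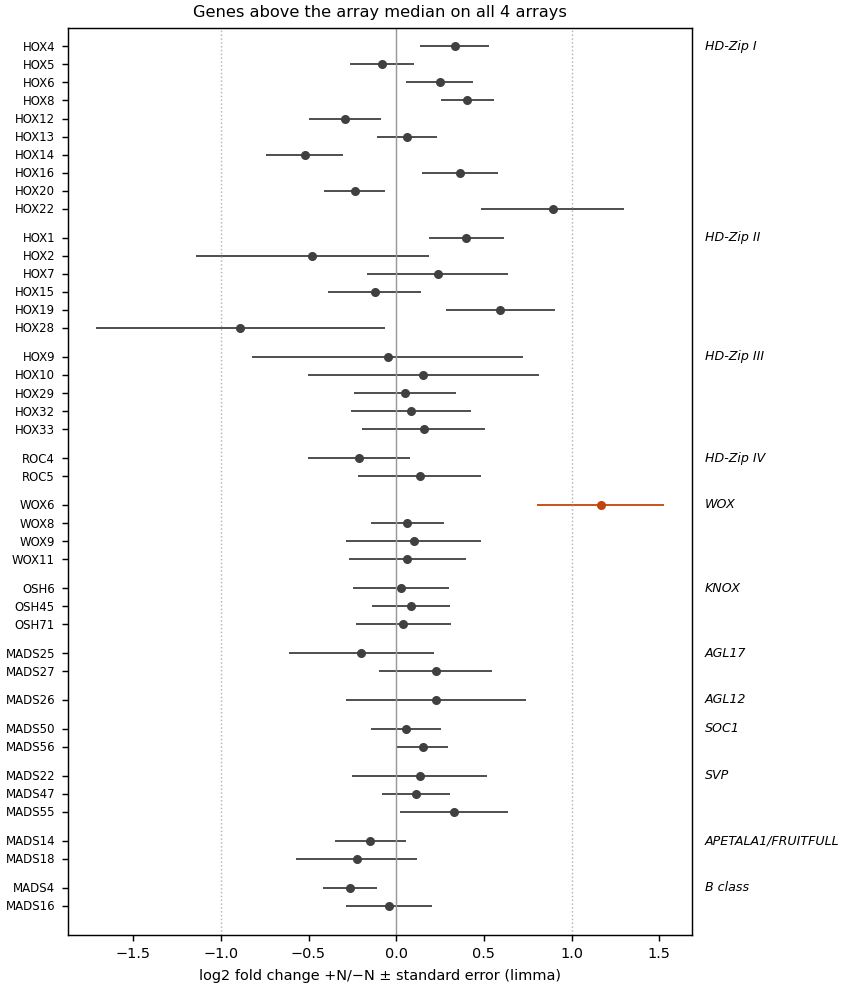
Log2 fold change of +N over −N (points) with its standard error from limma (bars) for the 42 detected genes, by subgroup. The dotted lines mark 2-fold; *WOX6* (1.16) lies beyond them, and *HOX22* (0.89) and *HOX28* (−0.89) lie inside.

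Other developmental regulators of rice were read from a list of 92 symbols, of which 34 genes were measured. Of these 18 (52.9%) were detected, against 79.4% of all genes. Against 1.01% of all genes called higher and 0.0223% called lower, 1 of the 34 was called higher and 0 lower, and the median log2 fold change was −0.086. All 4 measured genes listed as partners of the homeobox group were detected. They are themselves homeobox genes whose names the rule does not match, namely the KNOX genes *HOS58*, *HOS59* and *HOS66* and the gene *HAZ1*. Their log2 fold changes lay between −0.12 and 0.045. Of the genes listed as root regulators 8 of 9 were detected, against 5 of 15 regulators of the shoot meristem and 1 of 6 of the flower. Among the detected root genes were *SHR1*, the counterpart of the Arabidopsis radial patterning gene *SHORT-ROOT*, and the auxin efflux carrier gene *PIN2*, with log2 fold changes of −0.029 and −0.11. The detected root genes also include *IAA23* and genes named *ARF1*, *ARF12* and *ARF16*. The 1 undetected root gene, *SCR1*, had 10.9 and 12.3 in +N roots and 13.4 and 16.2 in −N roots. The gene called higher carries the symbol *SMR1*, and the annotation used here gives it no role, so it is uncertain that it is the root regulator meant by the list. It had 493 and 487 in +N roots and 208 and 245 in −N roots, without overlap. The log2 fold change was 1.12 ± 0.17 (SE, unadjusted p = 0.00472). Without −N replicate 1 it was 1.00, just under the 2-fold line, where the median over all genes was −0.23. The largest negative log2 fold change among the detected genes of the list was that of the auxin signalling gene *IAA23*, at −0.22 (unadjusted p = 0.480).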

How the data were processed

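The authors hybridized biotin-labelled cRNA of each root sample to its own array and deposited probe set intensities on a linear scale. Processing notes of the submitters list GCOS and RMA without versions. The sources used here do not say how the values were normalized. The deposited intensities of 57194 rice probe sets were used, and 187 control probe sets were left out. Intensities under 5.16, which is their 5th percentile, were raised to it before taking log2, no scaling was added, and limma 3.58.1 in R 4.3.3 compared +N with −N, with Benjamini-Hochberg adjustment over all probe sets. Calls required a 2-fold change and an unadjusted p under 0.05. With 2 arrays per group an exact permutation test (two-sided) cannot go below p = 0.333, so none was run. Gene names came from the annotation of the platform, in which 22436 probe sets have 1 gene, 95 several and 34663 none, and from a RefSeq table (assembly ASM3414082v1) that served for names and gene order alone. The fit was tested on simulated data. Genes named were those called, those without overlap and changed at least 1.5-fold, the extremes of each subgroup, and the detected *WOX* and AGL17 genes, and others are given with their values. The members, lists, subgroups and rules were chosen with earlier results of these data known. From the list of other regulators 6 genes that share a symbol with an unrelated gene were left out after their values were seen. The subgroups of *OSH10*, *OSH45* and *MADS33* were assigned after the gene names were seen. Alternatives covered scaling, variance moderation, the replicate block, single arrays left out, low values, the probe set of a gene, the call threshold and the detection line. Precision is limited throughout by the small number of arrays.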

Additional observations from a re-analysis of the deposited data

How the results depend on the processing

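Of the 77 homeobox and MADS genes, 0 were called higher after Benjamini-Hochberg adjustment, with no variance moderation, with probe sets of a gene averaged, and with the replicate number as a block, and the count was 0 to 1 when single arrays were left out. Without −N replicate 2 the gene called was *HOX22* in place of *WOX6*. *WOX6* kept its direction under every alternative, with log2 fold changes of 0.69 to 1.59. No gene was called lower under any alternative. The labels number the replicates alike in both groups without saying what a number shares, and the differences between replicates correlated at 0.56 between +N and −N over all probe sets. In the fit with the replicate block 206 of all genes were higher and 9 lower, against 180 and 4 without it, and *WOX6* had a limma p of 0.0546. That fit gave an unadjusted limma p of 0.0299 for *HOX28*, 0.0325 for *HOX22* and 0.0352 for *HOX2*. It gave 0.0355 for *HOX1*, 0.0398 for *HOX8* and 0.0463 for *HOX16*. None of these genes changed 2-fold. In the list of other regulators the count higher was 0 after Benjamini-Hochberg adjustment, 0 to 1 when single arrays were left out, and 2 with the 6 unrelated genes kept, an alternative chosen after seeing the data. Detection gave 23 genes at the 75th percentile, 24 at an intensity of 100, 46 where at least 2 arrays had to be above the median, and 42 to 44 when single arrays were left out. With array median centring the median log2 fold change was 0.053 in HD-Zip class I, 0.11 in class III and 0.052 in the KNOX group, and with quantile normalization it was 0.036 in class III. The median over all genes moved as well, from 0.018 in the main fit to 0.040 with centring and −0.0059 with quantile normalization. The sign turned for *HOX10* with probe sets averaged (−0.0061), for *HOX20* without the x and s probe sets (0.12), and with quantile normalization for *MADS50* (−0.0030) and *OSH6* (−0.022).

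With single arrays left out, which compares arrays of unlike scale, the median over all genes moved to between −0.23 and 0.28. In genes that were not called the log2 fold change took both signs. Among *HOX* genes it ranged over −0.48 to 0.79 for *HOX10*, −0.044 to 0.17 for *HOX13*, −0.41 to 0.16 for *HOX15*, −1.13 to 0.17 for *HOX2*, −0.23 to 0.32 for *HOX29*, −0.22 to 0.39 for *HOX32*, −0.20 to 0.51 for *HOX33*, −0.20 to 0.033 for *HOX5*, −0.22 to 0.69 for *HOX7* and −0.76 to 0.67 for *HOX9*. Among MADS genes the range was −0.32 to 0.028 for *MADS14*, −0.29 to 0.20 for *MADS16*, −0.56 to 0.11 for *MADS18*, −0.28 to 0.55 for *MADS22*, −0.64 to 0.24 for *MADS25*, −0.27 to 0.73 for *MADS26*, −0.076 to 0.53 for *MADS27*, −0.014 to 0.24 for *MADS47* and −0.12 to 0.23 for *MADS50*. In the rest it was −0.52 to 0.089 for *IAA23*, −0.12 to 0.29 for *OSH45*, −0.28 to 0.34 for *OSH6*, −0.25 to 0.33 for *OSH71*, −0.51 to 0.089 for *ROC4*, −0.26 to 0.53 for *ROC5*, −0.33 to 0.45 for *WOX11*, −0.076 to 0.20 for *WOX8* and −0.28 to 0.48 for *WOX9*. Without a change of sign, it moved by over 1.5 times in *HOX1* (0.22 to 0.58), *HOX4* (0.16 to 0.51), *HOX6* (0.082 to 0.41), *HOX12* (−0.45 to −0.13), *HOX16* (0.18 to 0.55), *HOX20* (−0.35 to −0.12) and *MADS56* (0.092 to 0.21).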
